A study of Rattus norvegicus with 14 samples.

Results

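The polo-like kinases are described here from the RNA of rat thyroid cells with and without the thyroid cancer fusion protein PPFP. The family was defined by name, as Plk1, Plk2, Plk3 and Plk4, and these are 4 of the 16816 gene symbols in the count table. It was chosen by its expression in these same libraries, with Plk3 set against the mitotic members, so the levels and fold changes of the 4 members are a description and carry no p value. RNA was sequenced from PCCL3 cells, a differentiated rat thyroid line, in 4 groups of 3 libraries. EV cells carried the empty vector and PPFP cells stably expressed human PAX8-PPARG fusion protein with a Myc tag. Each line was cultured for 16 hours with 1 µM pioglitazone, a thiazolidinedione ligand of PPARG, or with its DMSO vehicle. Each construct was studied in 1 stably transfected line, so a difference between the lines cannot be told apart from a difference between transfected lines as such.

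Polo-like kinases are serine/threonine kinases that recognize their substrates through a C-terminal polo-box region. Plk1 drives entry into mitosis, centrosome maturation, spindle assembly and cytokinesis, and its mRNA accumulates in G2 and M phase. Plk4 is the kinase that starts centriole duplication. Plk2 and Plk3 are stress- and growth factor-responsive kinases that were first described as immediate early genes, and both have been tied to the p53 response and to cell cycle checkpoints. The mRNA of Plk4, like that of Plk1, is regulated through the cell cycle.

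The 250 bases upstream of each annotated start are shown first, since the 4 genes differ in how they moved between the groups and the upstream sequence is what the files give of their control regions. The sequences are RefSeq promoters of the rat build GRCr8, at chr1:186147408-186147657 (plus strand), chr2:43702286-43702535 (plus strand), chr5:135848901-135849150 (minus strand) and chr2:125730230-125730479 (plus strand), each written 5′ to 3′ with its last base next to the start. Capitals mark matches, on either strand, to CCAAT (the NF-Y box), GGGCGG (the GC box), TTTGAA (a core of the cell cycle genes homology region), TGACG (a core of the cAMP response element), AGGTCA (the nuclear receptor hexamer) and TATAAA (the TATA box).
Plk1: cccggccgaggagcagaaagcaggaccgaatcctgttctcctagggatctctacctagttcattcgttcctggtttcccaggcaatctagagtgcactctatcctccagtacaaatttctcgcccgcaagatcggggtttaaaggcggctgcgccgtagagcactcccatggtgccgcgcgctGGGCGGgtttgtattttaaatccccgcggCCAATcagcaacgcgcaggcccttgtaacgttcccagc
Plk2: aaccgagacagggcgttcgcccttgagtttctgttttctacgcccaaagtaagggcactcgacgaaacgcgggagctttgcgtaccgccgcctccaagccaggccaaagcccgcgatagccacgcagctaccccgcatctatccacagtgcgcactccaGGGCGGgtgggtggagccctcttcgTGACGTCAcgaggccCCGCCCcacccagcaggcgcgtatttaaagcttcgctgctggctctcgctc
Plk3: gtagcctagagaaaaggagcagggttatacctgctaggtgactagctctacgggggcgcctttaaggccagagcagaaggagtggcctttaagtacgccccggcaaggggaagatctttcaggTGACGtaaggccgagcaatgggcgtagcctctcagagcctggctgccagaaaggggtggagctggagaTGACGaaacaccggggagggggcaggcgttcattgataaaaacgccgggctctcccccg
Plk4: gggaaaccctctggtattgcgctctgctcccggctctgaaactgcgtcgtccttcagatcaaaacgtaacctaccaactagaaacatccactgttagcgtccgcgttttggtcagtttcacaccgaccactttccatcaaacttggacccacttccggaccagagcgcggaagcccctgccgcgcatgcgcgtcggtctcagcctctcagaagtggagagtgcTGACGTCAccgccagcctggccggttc
The Plk1 promoter held CCAAT with its first base at -38 and GGGCGG at -67, counted back from the start. The Plk3 promoter held TGACG at -127 and at -59, and none of the other letters searched. The Plk2 promoter held GGGCGG at -91 and on the other strand at -51, and TGACG at -66 and on the other strand at -63, so that these last matches overlap. The Plk4 promoter held TGACG at -27 and, overlapping it on the other strand, at -24. In the first 50 bases after the start, which are not printed, TTTGAA lay at 7 in Plk1 and, on the other strand, at 19 in Plk4, CCAAT on the other strand at 44 in Plk2, and GGGCGG on the other strand at 42 in Plk4. Over the whole window of 250 bases before and 50 after the start, TGACG was present in 3 of 4 members and in 21.2% of 33469 rat promoters, GGGCGG in 3 of 4 and 33.1%, CCAAT in 2 of 4 and 37.5%, and TTTGAA in 2 of 4 and 18.3%. AGGTCA, in 16.2% of promoters, and TATAAA, in 14.2%, were in none of the 4 windows. A match is only a description of these letters, and binding of PPFP at these genes was not analysed here.

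Between 23.7 M and 35.2 M read pairs were counted on genes in each library, and levels are given as CPM, the counts of a gene relative to the library total after TMM scaling. CPM depends on transcript length, so a gene is compared only with itself across groups. The rat Pparg row stood at 1.60 ± 0.347 CPM in the EV group without pioglitazone and at 54.1 ± 6.82 CPM in the matching PPFP group (SD, n = 3; edgeR adjusted p = 3.6e-06), as far as reads of the human fusion align there. Of 10 thyroid follicular cell markers, all 10 were at 1 CPM or more on average over the 12 libraries, and they did not stay level: Foxe1 averaged 873, 861, 132 and 106 CPM in EV cells, EV cells with pioglitazone, PPFP cells and PPFP cells with pioglitazone, Slc5a5 1122, 1081, 339 and 178 CPM, Iyd 3.43, 2.91, 1.30 and 0.45 CPM, and Duox2 19.2, 18.6, 88.7 and 179 CPM. The thyroid sum was between 10444 and 14035, 11146 and 14684, 13803 and 14442, and 10207 and 10508 CPM in the same groups, so that the PPFP groups did not overlap. Their part in the differences of the kinases was not tested. The 6 leukocyte markers summed to between 4.45 and 6.93 CPM. Of 6 fibroblast markers, 3 had no count in any library, but Pdgfra averaged between 21.1 and 29.5 CPM and Col1a1 between 1.73 and 2.53 CPM in the 4 groups. The fibroblast sum was between 22.3 and 24.2 CPM in EV cells, 22.9 and 24.3 CPM in EV cells with pioglitazone, 20.4 and 32.4 CPM in PPFP cells and 26.01 and 34.5 CPM in PPFP cells with pioglitazone, where it lay above every EV library, and its part in the differences between the lines was not tested.

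Plk3 carried the largest difference within the family. Its counts in EV cells without pioglitazone were 97, 91 and 115 in replicates 1, 2 and 3, equal to 3.28, 3.05 and 3.83 CPM. In EV cells with pioglitazone they were 117, 101 and 89, or 3.17, 3.25 and 3.11 CPM, so the EV groups overlapped. In PPFP cells without pioglitazone they were 345, 397 and 347, or 12.7, 14.8 and 14.9 CPM, each above every EV library. In PPFP cells with pioglitazone they were 742, 974 and 975, or 28.1, 36.3 and 32.5 CPM. Every PPFP library with pioglitazone was above every PPFP library without it. The group means were 3.39 ± 0.40, 3.18 ± 0.068, 14.1 ± 1.24 and 32.3 ± 4.12 CPM (SD, n = 3), in the order EV, EV with pioglitazone, PPFP, PPFP with pioglitazone. The fitted difference between PPFP and EV cells was 4.17-fold without pioglitazone (log2 2.06, SE 0.15) and 10.3-fold with it (log2 3.36, SE 0.14). Pioglitazone gave 2.31-fold in PPFP cells (log2 1.21, SE 0.12) and 0.936-fold in EV cells (log2 -0.10, SE 0.16), which is within the spread of the EV libraries. The difference between these pioglitazone responses, PPFP minus EV, was 1.29 on the log2 scale (SE 0.18). In bulk RNA a higher level in every cell and a larger share of cells with the transcript cannot be told apart.

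Plk2 followed the same order of groups with smaller steps. In EV cells without pioglitazone it was at 22.8, 26.1 and 22.4 CPM in replicates 1, 2 and 3. In EV cells with pioglitazone it was at 23.5, 24.7 and 20.7 CPM, and in PPFP cells without pioglitazone at 50.2, 66.3 and 65.0 CPM. In PPFP cells with pioglitazone it was at 76.9, 90.8 and 87.4 CPM. As for Plk3, the PPFP libraries lay above all EV libraries and those with pioglitazone above those without, and the EV groups overlapped. The group means were 23.8 ± 2.03, 22.9 ± 2.06, 60.5 ± 8.96 and 85.0 ± 7.27 CPM (SD, n = 3). PPFP cells had 2.55-fold the Plk2 level of EV cells without pioglitazone (log2 1.35, SE 0.13) and 3.75-fold with it (log2 1.91, SE 0.11). The log2 change with pioglitazone was 0.50 (SE 0.13) in PPFP cells and -0.05 (SE 0.10) in EV cells.

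Plk1 varied more between replicate libraries than between groups. It was at 126, 72.7 and 222 CPM in EV cells without pioglitazone and at 119, 45.1 and 208 CPM with it, in replicates 1, 2 and 3. In PPFP cells it was at 261, 128 and 129 CPM without pioglitazone and at 271, 155 and 148 CPM with it. All 4 groups overlapped: replicate 3 was the high library and replicate 2 the low one in both EV groups, and replicate 1 was the high library in both PPFP groups. The group means were 140 ± 75.5, 124 ± 81.8, 173 ± 76.3 and 191 ± 69.4 CPM (SD, n = 3), so the SD was between 36.2% and 65.8% of the mean, against 2.15% to 12.7% for Plk3. The log2 difference between PPFP and EV cells was 0.30 (SE 0.42) without pioglitazone, and the interval of 2 SE around it runs from -0.55 to 1.15. With pioglitazone it was 0.63 (SE 0.51, interval -0.40 to 1.65). It fell to -0.11 without replicate 1 of PPFP cells and reached 0.80 without replicate 3 of EV cells in the comparison without pioglitazone, so even its sign rests on 1 library.

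Plk4 behaved like Plk1, with smaller spread. It was at 67.4, 52.3 and 88.0 CPM in EV cells without pioglitazone and at 67.7, 39.7 and 86.8 CPM with it. In PPFP cells it was at 92.1, 60.1 and 62.0 CPM without pioglitazone and at 115, 81.3 and 74.7 CPM with it. The groups overlapped in every comparison, and the high and the low libraries were those of Plk1. The group means were 69.2 ± 17.9, 64.7 ± 23.6, 71.4 ± 18.0 and 90.3 ± 21.6 CPM (SD, n = 3). The log2 difference between PPFP and EV cells was 0.05 (SE 0.23, interval -0.40 to 0.50) without pioglitazone and 0.49 (SE 0.29, interval -0.09 to 1.07) with it, and its sign without pioglitazone turned to -0.16 when replicate 1 of PPFP cells was left out.

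**Figure D1:**
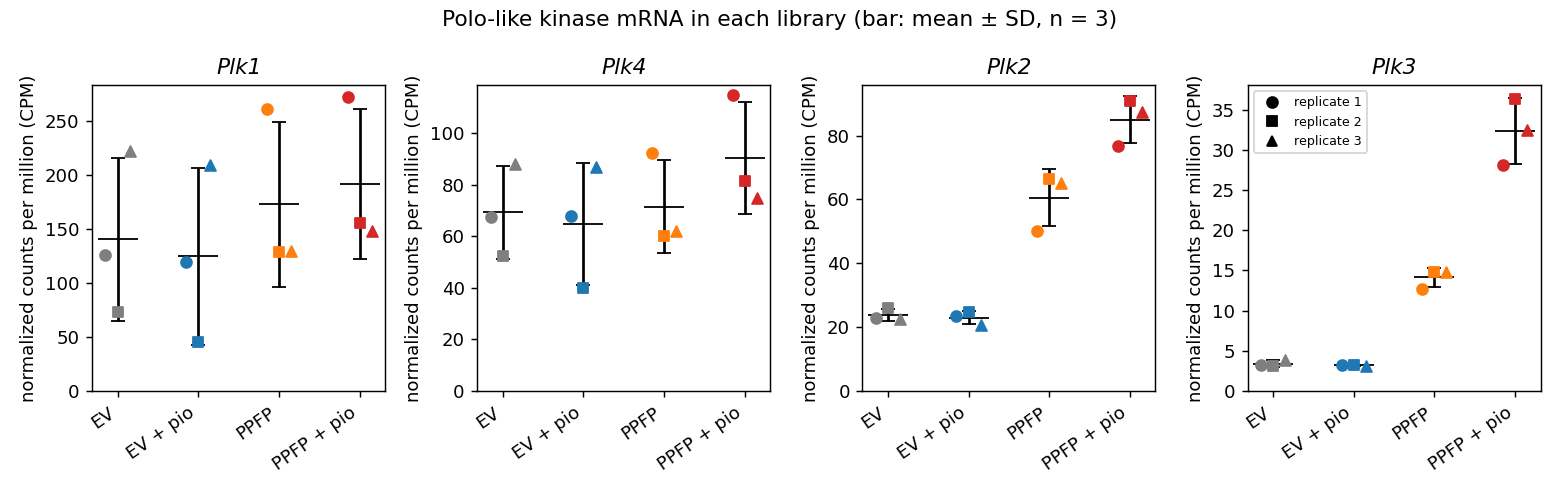
Normalized CPM of Plk1, Plk4, Plk2 and Plk3 in each of the 12 libraries, by group, with linear axes from 0; symbols mark the replicate number, and bars the mean ± SD of 3 libraries. The Plk3 libraries of PPFP cells with pioglitazone sit between 28.1 and 36.3 CPM and those of both EV groups between 3.05 and 3.83 CPM, whereas the Plk1 and Plk4 groups overlap.

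Set against the background, 2 of the 4 members, Plk2 and Plk3, were past an adjusted p of 0.05 in PPFP versus EV cells without pioglitazone, both higher, where 22% of the 10264 genes tested were called higher and 23.1% lower. With pioglitazone it was the same 2 members, where 26.3% of 10291 genes were called higher and 26.4% lower. For pioglitazone in PPFP cells Plk2 and Plk3 were called higher, where 7.63% of 10064 genes were higher and 7.13% lower, and in EV cells no member was called, with 0% of 10146 genes in either direction. In EV cells 16 genes had an unadjusted p under 0.05 with edgeR, and DESeq2 also called 0 genes. For the difference in pioglitazone response between the lines Plk3 alone was called, where 1.38% of 10482 genes were higher and 1.26% lower. The comparisons share groups and are not independent of each other. Since the family was chosen with these values known, the counts are given beside the background and nothing is read from them.

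**Figure D2:**
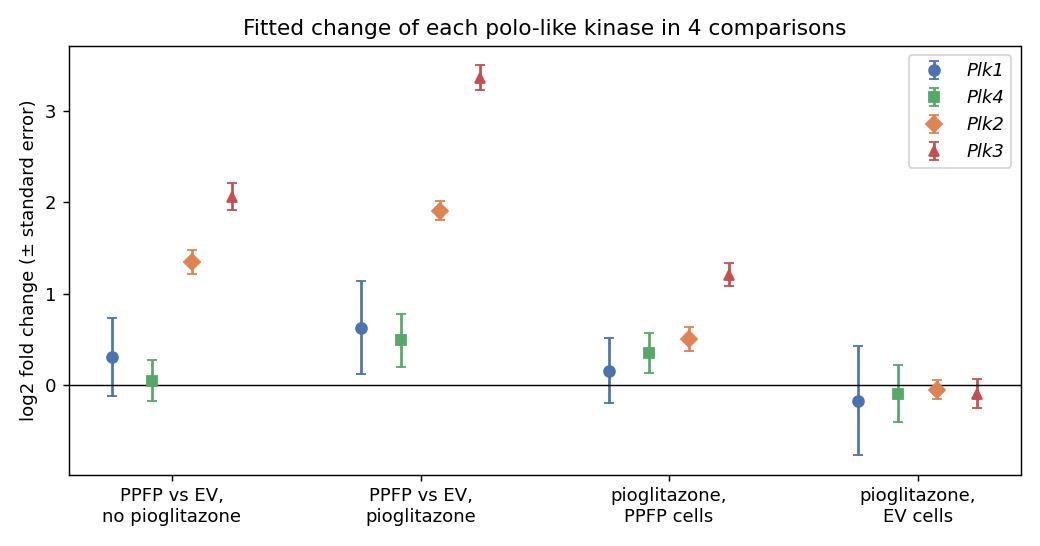
Log2 fold change with its standard error for each polo-like kinase in the 4 comparisons, from edgeR fits of 6 libraries each. Plk3 lies highest in the first 3 comparisons, at 2.06, 3.36 and 1.21, and all 4 members lie within 1 standard error of 0 for pioglitazone in EV cells.

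Libraries with the same replicate number deviated together within each line, so the pioglitazone comparisons were also fitted with that number as a block. Within numbers 1, 2 and 3, Plk1 with pioglitazone was 1.04, 1.21 and 1.15 times its level without it in PPFP cells. The same ratios were 1.25, 1.35 and 1.20 for Plk4, 1.53, 1.37 and 1.34 for Plk2, and 2.21, 2.45 and 2.19 for Plk3. All 4 members were thus higher with pioglitazone in 3 of 3 numbers, and the ratios of each gene were close to each other although the Plk1 and Plk4 levels themselves were spread widely. In EV cells the ratios were 0.948, 0.621 and 0.940 for Plk1, 1.00, 0.760 and 0.986 for Plk4, 1.03, 0.947 and 0.922 for Plk2, and 0.968, 1.06 and 0.811 for Plk3. With the block, the log2 change in PPFP cells was 0.18 (SE 0.04) for Plk1, 0.35 (SE 0.04) for Plk4, 0.51 (SE 0.05) for Plk2 and 1.20 (SE 0.06) for Plk3, and 4 of 4 members were past the threshold, where the block called 27.7% of genes higher and 23.9% lower. In EV cells the blocked fit called no member, with 0.00986% of genes called higher and 0% lower. For the difference between the lines the block gave log2 0.42 (SE 0.12) for Plk1, 0.46 (SE 0.09) for Plk4, 0.55 (SE 0.07) for Plk2 and 1.28 (SE 0.13) for Plk3, all 4 past the threshold, where 17.2% of genes were called higher and 17.1% lower. The family was chosen by its expression in these same libraries, and the block by correlations among them. The blocked calls of the members are thus a description too, and nothing is read from them. Without the block the Plk2 call in PPFP cells was at the edge of the threshold: leaving out any 1 of 5 of the 6 libraries ended it, and only without replicate 1 of PPFP cells without pioglitazone was it kept.

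The contrast of Plk3 with each other member was then taken within a library, as the log2 ratio of their counts, which no scaling between libraries can change. The mean log2 ratio of Plk3 to Plk1 was -5.23 ± 0.64 in EV cells, -5.03 ± 1.15 in EV cells with pioglitazone, -3.53 ± 0.72 in PPFP cells and -2.52 ± 0.66 in PPFP cells with pioglitazone (SD, n = 3). It was thus higher in PPFP than in EV cells by 1.70 without and 2.52 with pioglitazone, with no overlap of libraries, and higher by 1.01 with pioglitazone in PPFP cells, where the groups overlapped but the ratio was higher by 1.09, 1.02 and 0.93 within numbers 1, 2 and 3. The ratio of Plk3 to Plk4 was higher in PPFP cells by 2.01 without and 2.81 with pioglitazone, again without overlap, and higher with pioglitazone in PPFP cells by 0.83, 0.86 and 0.86 within numbers 1, 2 and 3. In EV cells the shifts with pioglitazone within these numbers were 0.03, 0.77 and -0.21 for Plk3 to Plk1 and -0.05, 0.48 and -0.28 for Plk3 to Plk4. The ratio to Plk2, the closest to Plk3 in its order of groups, was -2.81 ± 0.27, -2.85 ± 0.10, -2.09 ± 0.10 and -1.40 ± 0.07 in the 4 groups. It was higher in PPFP cells by 0.72 without and 1.45 with pioglitazone and, within PPFP cells, higher by 0.69 with pioglitazone, with no overlap in any of these comparisons. In EV cells pioglitazone shifted it by -0.03, and the groups overlapped. By contrast the ratio of Plk4 to Plk1 differed between PPFP and EV cells by -0.31 without and -0.30 with pioglitazone, and the libraries overlapped. Within numbers 1, 2 and 3 it was higher with pioglitazone by 0.26, 0.16 and 0.07 in PPFP cells and by 0.08, 0.29 and 0.07 in EV cells.

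**Figure D3:**
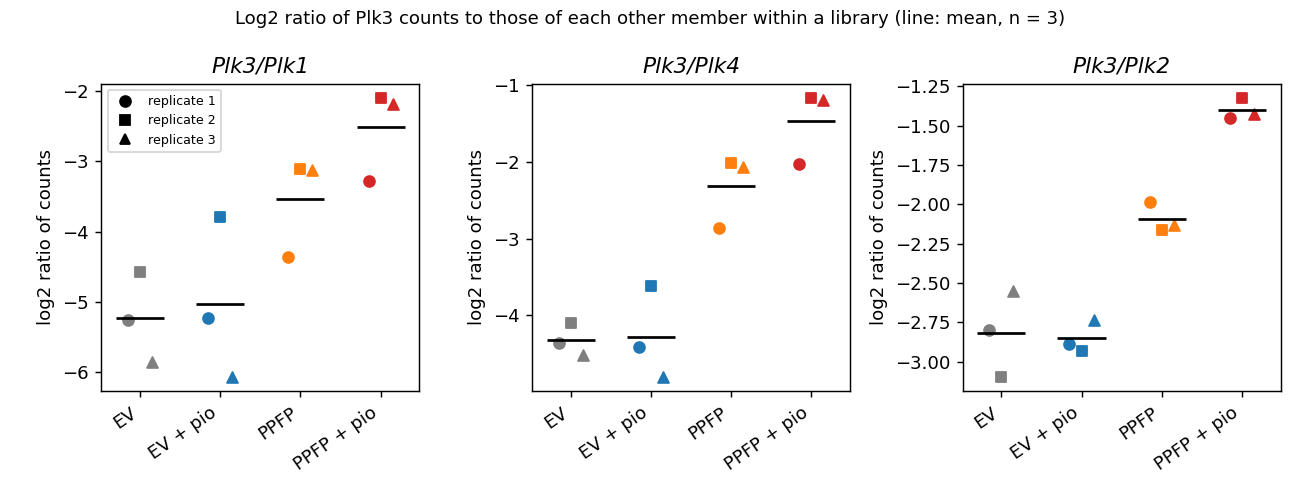
Log2 ratio of Plk3 counts to those of Plk1, Plk4 and Plk2 within each library, by group; lines mark means of 3 libraries and each panel has its own axis. The mean Plk3 to Plk2 ratio runs from -2.81 in EV cells to -1.40 in PPFP cells with pioglitazone, and its PPFP and EV libraries do not overlap.

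The mitotic genes that act with Plk1 gave a scale for the spread of Plk1 and Plk4. Of a list of 32 such genes, 29 were in the table, and their summed level was between 1914 and 4263 CPM in EV cells, 1403 and 4109 CPM in EV cells with pioglitazone, 2985 and 5335 CPM in the PPFP group and 3561 and 5664 CPM in PPFP cells with pioglitazone. Plk1 and Plk4 each put the 3 libraries of a group in the same order as this sum in 4 of 4 groups. Plk3 did so in 1 of 4 groups and Plk2 in 0 of 4. In PPFP cells with pioglitazone the library with the highest mitotic sum, replicate 1, was the lowest for both Plk2 and Plk3. The sum moves with the levels of Plk1 and Plk4 from library to library, and its part in their differences between groups was not tested.

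**Figure D4:**
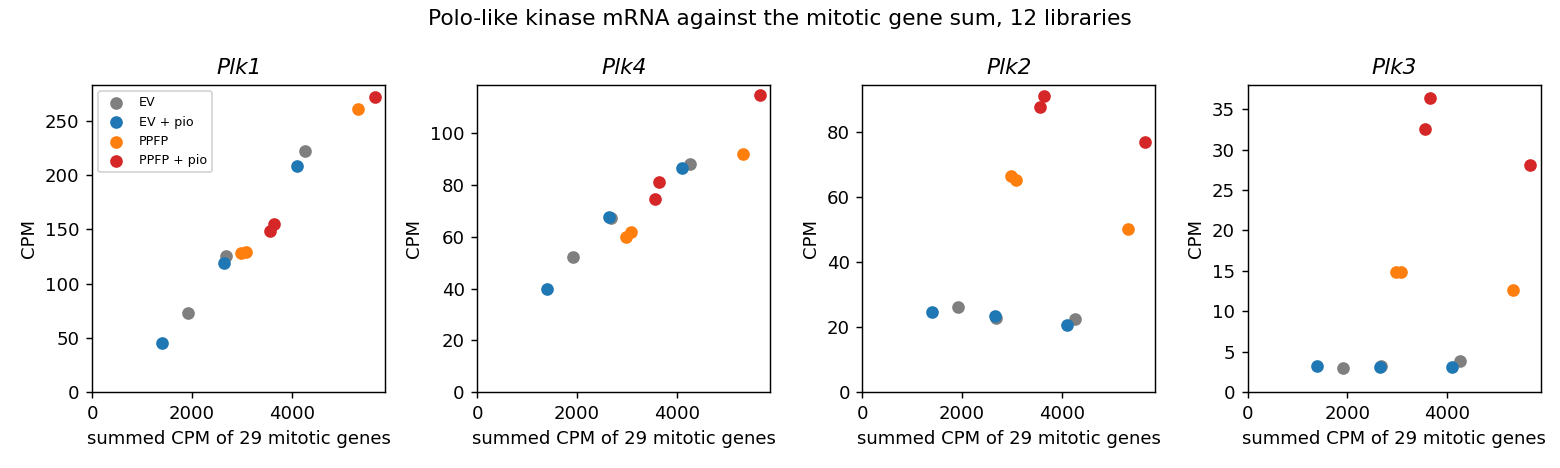
CPM of each polo-like kinase against the summed CPM of 29 mitotic genes in the 12 libraries, coloured by group, with axes from 0. Plk1 and Plk4 climb with the sum across all groups, whereas Plk2 and Plk3 sit at separate heights in PPFP and EV cells over sums that run from 1403 to 5664 CPM.

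The genes whose pattern over the 12 libraries was most like each member were ranked by Pearson r of log2 CPM among 9637 genes that averaged 1 CPM or more. For Plk1 they were Kif22 (r = 0.998), Tpx2 (0.996), Smc2 (0.995), Kif2c (0.993) and Srsf3 (0.992). For Plk4 they were Ska1 (0.993), Fam111a (0.992), Mastl (0.988), Cdca2 (0.988) and Pbk (0.987). For Plk3 they were Slc47a1 (0.998), Bcar1 (0.998), Galnt7 (0.997), Hdgfrp3 (0.997) and Plin2 (0.996), and for Plk2 they were Cgnl1 (0.997), G0s2 (0.996), RGD1564664 (0.995), Tmem140 (0.995) and tGap1 (0.995). Plin2, which encodes the lipid droplet protein perilipin 2, had 41.7 ± 2.81 CPM in EV, 285 ± 3.04 CPM in PPFP and 1046 ± 16.5 CPM in pioglitazone-treated PPFP cells (SD, n = 3). Slc47a1, an organic cation exporter, was listed at 0 in all EV libraries and at 8.32 ± 1.67 CPM in PPFP cells with pioglitazone. It and tGap1, at 0.26 CPM in EV and 5.92 CPM in pioglitazone-treated PPFP cells, passed the filter only through the PPFP groups, and their r is a likeness to the split between the lines as much as to the member. G0s2, an inhibitor of the lipase ATGL, had 63.9 ± 10.3 CPM in EV and 385 ± 87.5 CPM in pioglitazone-treated PPFP cells. Within the family r was 0.97 between Plk1 and Plk4 and 0.99 between Plk2 and Plk3, but 0.41 between Plk1 and Plk3 and 0.31 between Plk2 and Plk4. These r values describe libraries that share 4 groups, and 504 genes reached r above 0.95 with Plk3, 549 with Plk2, 123 with Plk1 and 84 with Plk4. By Spearman rho 12 genes were above 0.95 with Plk3, 169 with Plk2, 169 with Plk1 and 69 with Plk4, and the 5 genes ranked highest shared 0 with the names above for Plk1, Plk2 and Plk3 and 2 for Plk4. For Plk1 the 5 by rho all tied at 1, and ties also stood among the 5 of Plk2, Plk3 and Plk4. Which names were kept can thus depend on the order of ties. For Plk2, Plk3 and Plk4 the names changed with the measure.

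In the mitotic list 3 of 29 genes were higher in PPFP than in EV cells without pioglitazone and 1 was lower, where 22% of all genes tested were called higher and 23.1% lower. The median log2 difference of the list was 0.31 against 0.0016 over all genes tested, but it went from -0.01 without replicate 1 of PPFP cells to 0.72 without EV replicate 3, so its sign rests on 1 library. Nedd1, which brings the gamma-tubulin ring complex to the spindle, rose from 35.2 ± 4.63 to 71.0 ± 8.54 CPM (log2 1.01, SE 0.13, edgeR adjusted p = 0.00061), and Pkmyt1, an inhibitory kinase of Cdk1, rose with log2 0.79 (SE 0.20, edgeR adjusted p = 0.014). When each library was left out in turn, the log2 difference of Pkmyt1 stayed between 0.59 and 1.01. Its edgeR adjusted p then reached up to 0.052, past the threshold of a call. Bora, the cofactor through which Aurora A activates Plk1, fell from 12.8 ± 4.95 to 7.29 ± 0.728 CPM (log2 -0.81, SE 0.28, edgeR adjusted p = 0.047), a call that was kept only without EV replicate 2 when each library was left out in turn. The other higher gene was Racgap1. The genes that form the core of mitotic entry did not pass: cyclin B1 (Ccnb1) had log2 0.60 (SE 0.45), Cdk1 0.45 (SE 0.40) and Aurora A (Aurka) 0.43 (SE 0.35). Without replicate 1 of PPFP cells these values were 0.06, 0.02 and 0.06, and without EV replicate 3 they were 1.11, 0.87 and 0.82. Between the lines when both had pioglitazone, 4 of 29 genes were higher and 0 lower, against 26.3% and 26.4% of all genes. The median was 0.55 against 0.012 over all genes, from 0.25 without EV replicate 2 to 1.03 without EV replicate 3. Pkmyt1 was the highest, at 83.9 ± 4.73 against 32.3 ± 9.72 CPM (log2 1.39, SE 0.22, edgeR adjusted p = 0.0015), beside Nedd1, Racgap1 and Ttk. These counts depended on which libraries were in the fit. Without pioglitazone 8 genes passed without EV replicate 3, 1 without EV replicate 1, and 2 each without replicate 2 or 3 of PPFP cells. With pioglitazone 19 passed without EV replicate 3, and 2 each without EV replicate 1 or replicate 1 or 2 of PPFP cells. The shares of all genes given above belong to the full fits. Shares with a library left out are not given here, for this list or those below. A swing in these counts thus cannot be told apart from one over all genes.

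Pioglitazone in PPFP cells raised 1 mitotic gene of 29 in the unblocked fit, where 7.63% of all genes were called higher and 7.13% lower. This was Pkmyt1, from 62.6 ± 4.39 to 83.9 ± 4.73 CPM (log2 0.43, SE 0.07, edgeR adjusted p = 0.011). The list's median change was 0.20, from -0.04 without treated replicate 1 to 0.45 without untreated replicate 1. No gene of the list passed without replicate 2 of the untreated or replicate 3 of the treated PPFP cells, and 2 passed without replicate 1 of the untreated ones. With the replicate block 21 of 29 rose and 0 fell, against 27.7% and 23.9% of all genes, with a median log2 change of 0.22. Among them were Ccnb1 (log2 0.23, SE 0.04, edgeR adjusted p = 7.7e-05), Cdk1 (log2 0.24, SE 0.04, edgeR adjusted p = 7.7e-05) and Aurka (log2 0.36, SE 0.05, edgeR adjusted p = 2.2e-06). In EV cells 0 of 29 passed in either fit, and the blocked median was -0.16. The blocked difference between the lines passed for 22 of 29 genes, all higher in PPFP cells, against 17.2% of all genes higher and 17.1% lower. The blocked and unblocked log2 changes of Plk1 in PPFP cells were 0.18 and 0.16, with standard errors of 0.04 and 0.35.

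The centriole genes that act with Plk4 were fewer in the table, 12 of 18. Without pioglitazone 2 were higher in PPFP cells and 4 lower, against 22% and 23.1% of all genes, with a median of 0.03, from -0.09 without EV replicate 2 to 0.08 without EV replicate 3. Cep97, which caps centrioles together with Ccp110, rose from 24.1 ± 2.19 to 36.5 ± 2.34 CPM (log2 0.60, SE 0.10, edgeR adjusted p = 0.0025), and pioglitazone in PPFP cells lowered it to 22.9 ± 3.05 CPM (log2 -0.67, SE 0.10, edgeR adjusted p = 0.0081). Its pioglitazone response differed between the lines by -0.69 (SE 0.15, edgeR adjusted p = 0.038). Fbxw5, a ubiquitin ligase subunit that Plk4 phosphorylates, was lower in PPFP cells (log2 -0.48, SE 0.11, edgeR adjusted p = 0.0083). Tubgcp6, a gamma-tubulin complex subunit, was higher in PPFP than in EV cells when both had pioglitazone (log2 0.51, SE 0.11, edgeR adjusted p = 0.0079). Sass6, the cartwheel protein of the new centriole, had log2 0.13 (SE 0.21) and did not pass. Of the 12 genes, 2 were higher and 3 lower in PPFP cells when both lines had pioglitazone, against 26.3% and 26.4% of all genes. The blocked fit of pioglitazone in PPFP cells called 4 higher and 1 lower, against 27.7% and 23.9% of all genes.

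Of the partners and substrates of Plk2 and Plk3, 10 were tested from a list of 12, and 0 were higher and 2 lower in PPFP cells without pioglitazone, against 22% and 23.1% of all genes. Their median was 0.17, from 0.02 without EV replicate 2 to 0.31 without EV replicate 3. The lower genes included Sipa1l1, a GTPase-activating protein of Rap that Plk2 targets in neurons (log2 -0.25, SE 0.08, edgeR adjusted p = 0.034). Cib1, a calcium-binding partner of Plk3, had log2 0.26 (SE 0.13), and Chek2, the checkpoint kinase that Plk3 phosphorylates, 0.50 (SE 0.25), and neither passed. Between the lines when both had pioglitazone, 2 were higher and 1 lower, against 26.3% and 26.4% of all genes. Cdc25a, the Cdk phosphatase, had log2 0.96 (SE 0.22, edgeR adjusted p = 0.009), Chek2 0.73 (SE 0.24, edgeR adjusted p = 0.034) and Hif1a -0.32 (SE 0.10, edgeR adjusted p = 0.030). Sipa1l1 alone passed for pioglitazone in PPFP cells, where 7.63% of all genes were called higher and 7.13% lower (log2 0.18, SE 0.05, edgeR adjusted p = 0.048), a call that any left-out library ended, while the block called 6 higher and 1 lower, against 27.7% and 23.9% of all genes. The counts between the lines went from 0 (without EV replicate 1, or replicate 2 or 3 of PPFP cells) to 7 (without EV replicate 3) in the comparison without pioglitazone, with 1 without EV replicate 2. With pioglitazone they were 5 without EV replicate 3 and 1 each without EV replicate 1 or replicate 2 or 3 of PPFP cells.

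Plk2 is a known target of p53 and Plk3 acts in the p53 response, so p53 target genes were listed as well. Of 19 tested from a list of 22, 6 were higher and 2 lower in PPFP cells without pioglitazone, against 22% and 23.1% of all genes. Their median was 0.06, from 0.02 without EV replicate 2 to 0.16 without replicate 1 of PPFP cells, and -0.01 when scaled by library size alone. Perp, an epithelial adhesion protein, rose from 22.7 ± 1.73 to 83.0 ± 4.88 CPM (log2 1.87, SE 0.10, edgeR adjusted p = 1.0e-05), and Mdm2, the ubiquitin ligase of p53, had log2 0.69 (SE 0.08, edgeR adjusted p = 0.00048). Cdkn1a, which encodes the Cdk inhibitor p21, fell from 314 ± 20.2 to 173 ± 23.0 CPM (log2 -0.86, SE 0.11, edgeR adjusted p = 0.00078). Between the lines when both had pioglitazone, 4 were higher and 3 lower, against 26.3% and 26.4% of all genes, with Perp at log2 1.79 (SE 0.10, edgeR adjusted p = 1.5e-05) and Cdkn1a at -1.09 (SE 0.15, edgeR adjusted p = 0.00072). Pioglitazone in PPFP cells raised 2 of 19, against 7.63% of all genes higher and 7.13% lower, of which Ei24 had the larger change (log2 0.41, SE 0.05, edgeR adjusted p = 0.0026), and the block called 6 higher and 5 lower, against 27.7% and 23.9%. The unblocked count was 3 without replicate 1 of PPFP cells with pioglitazone and 1 without any of the other 5 libraries, namely replicates 1, 2 and 3 of PPFP cells without pioglitazone and replicates 2 and 3 with it.

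The immediate early genes are the class in which Plk2 and Plk3 were first found. Of 17 tested from 20, 3 were higher and 4 lower in PPFP cells without pioglitazone, against 22% and 23.1% of all genes. Their median was -0.35, but -0.00065 without replicate 1 of PPFP cells. Between the lines when both had pioglitazone it was -0.38, or -0.11 without replicate 1 of PPFP cells, and the median change with pioglitazone in PPFP cells, -0.13, turned to 0.18 without treated replicate 1. Myc rose from 36.3 ± 15.1 to 105 ± 30.4 CPM (log2 1.54, SE 0.32, edgeR adjusted p = 0.0064). Ctgf, a matricellular protein, fell from 609 ± 107 to 96.1 ± 16.0 CPM (log2 -2.66, SE 0.18, edgeR adjusted p = 2.9e-05), and the AP-1 subunit gene Fosl1 fell from 2.97 ± 0.038 to 0.80 ± 0.016 CPM (log2 -1.88, SE 0.19, edgeR adjusted p = 0.0002). Between the lines when both had pioglitazone, 1 was higher and 4 lower, against 26.3% and 26.4% of all genes, and 9 passed in all without replicate 1 of PPFP cells. In PPFP cells pioglitazone lowered Fosl1 alone in the unblocked fit, where 7.63% of all genes were called higher and 7.13% lower (log2 -0.91, SE 0.23, edgeR adjusted p = 0.047). That call was lost without any 1 of the 6 libraries, with log2 changes between -1.02 and -0.79. The block called 3 higher and 8 lower, against 27.7% and 23.9% of all genes. In EV cells 0 genes of any of the 5 lists passed for pioglitazone, in either fit.

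**Figure D5:**
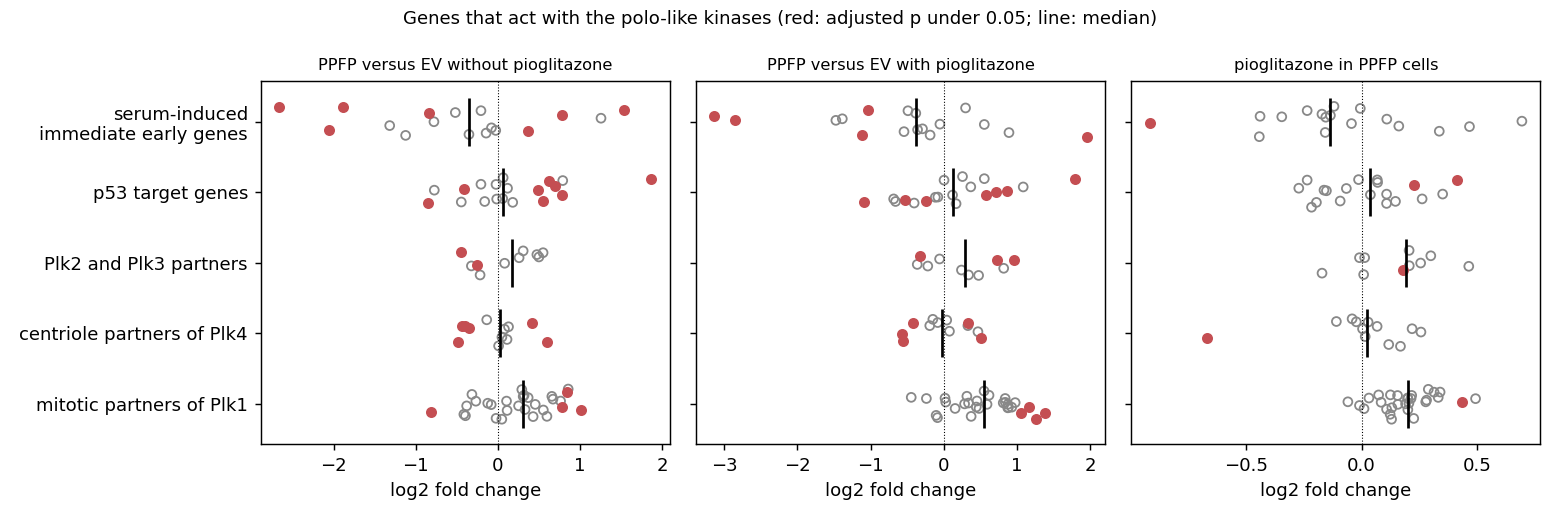
Log2 fold changes of the genes of 5 lists in 3 comparisons, each panel with its own axis; red points passed an adjusted p of 0.05 in the unblocked edgeR fit and black lines mark list medians. The medians of the mitotic list are 0.31, 0.55 and 0.20, and those of the immediate early list are -0.35, -0.38 and -0.13, and leaving out 1 library turned the sign of the first and the third mitotic median and of the third immediate early one.

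The place of the genes in the genome bears on how their reads were counted. In the RefSeq annotation of GRCr8, Plk1 overlaps Ern2 and Plk3 overlaps Dynlt4, and the counting was not stated to use strand. How reads from such an overlap were counted in the build used by the authors was not tested. Ern2 was at or near 0 in every group. Dynlt4 was not matched by symbol in the table, so its part in the Plk3 counts was not tested. Kif2c, a gene near Plk3 in that order, was at 78.6 ± 37.0 CPM in EV and 97.9 ± 24.4 CPM in pioglitazone-treated PPFP cells (SD, n = 3). It was picked for its position after the values were seen.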

How the data were processed

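RNA was measured in 12 libraries of PCCL3 cells, 3 for each of the EV and PPFP lines with or without pioglitazone. The authors aligned 50 nt paired-end reads to the rat genome rn4 with TopHat2 2.0.11 and counted them per gene with HTSeq 0.6.1p1 in intersection-strict mode, and the deposited table holds these raw counts by gene symbol, neither normalized nor pooled. The submitters' processing notes also name CASAVA 1.8.2, BWA 0.5.9-r16, MACS2 and edgeR 3.2.4. The ChIP and input samples, 1 each, were not used here, since no gene annotation of rn4 was at hand to place their peaks. Each library held 23.7 M to 35.2 M counts. Of 16816 genes, 3447 had no count.

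The tests ran in edgeR 4.0.16 (on limma 3.58.1) and DESeq2 1.42.0 under R 4.3.3. After filterByExpr and TMM, the quasi-likelihood test of edgeR was fitted to the 6 libraries of the groups compared, with Benjamini-Hochberg adjustment over all genes tested at 0.05. The difference in pioglitazone response was the interaction term of a fit of 12 libraries. The standard error was derived from the log2 fold change and the F statistic. CPM used TMM factors over the 12 libraries (0.925 to 1.05), and log2 CPM for likeness a prior count of 2. The fits were tested on simulated data. RefSeq promoters of GRCr8 were matched by symbol for 4 of 4 members with Python 3.11.15, and figures drawn with matplotlib 3.10.9.

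The members and the 5 gene lists, which hold genes known to act with the kinases, were chosen with earlier results of these data known. The genes named were the members, in each list and comparison the called genes with the largest change in each direction, a set of 9 genes named whatever their values (Ccnb1, Cdk1, Aurka, Bora, Cib1, Chek2, Sass6, Cdkn1a, Mdm2), and the 5 genes most like each member. Other genes were named after their values were seen. Some genes counted in the lists are not reported here by name.

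The study ran 3 independent experiments, with the libraries of an experiment sharing lanes, and the labels do not say that a replicate number marks an experiment. Deviations from the group means correlated between same-numbered libraries with and without pioglitazone at 0.74, 0.46 and 0.43 in PPFP cells and at 0.53, 0.73 and 0.77 in EV cells for numbers 1, 2 and 3, so these numbers were taken to pair the samples within a line. In PPFP cells numbers 2 and 3 were not set apart by this check: across them the correlations were 0.54 and 0.35. The alternatives were DESeq2, RLE factors, library size alone, no filter or at least 10 counts in every compared library, edgeR's exact test, all 12 libraries in 1 fit, the replicate block and leaving out each library.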

Additional observations from a re-analysis of the deposited data

Results flagged for a closer look

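The response of Plk3 to pioglitazone differed between the lines: PPFP cells had a log2 change of 1.21 and EV cells -0.10, a difference of 1.29 (SE 0.18), higher with pioglitazone in 3 of 3 numbers in PPFP cells and in 1 of 3 in EV cells. It was picked out because the interaction term of the fit over 12 libraries passed an adjusted p of 0.05, and it stayed between 1.19 and 1.38 when each of the 12 libraries was left out in turn. The family was chosen with this difference known, so it is a description and not a test.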

How the results depend on the processing

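The log2 differences of Plk2 and Plk3 kept their sign under every alternative run for PPFP versus EV cells and for pioglitazone in PPFP cells. Over the alternatives other than leaving out a library, Plk3 was between 1.98 and 2.06 without and 3.23 and 3.36 with pioglitazone, and Plk2 between 1.27 and 1.35 and between 1.77 and 1.91. The lowest values with pioglitazone, 1.77 for Plk2 and 3.23 for Plk3, came from scaling by library size alone, which shifts the median of all genes from 0.012 to -0.12. Plk1 ranged from -0.11 to 0.80 without and 0.22 to 1.21 with pioglitazone over left-out libraries, and in EV cells its pioglitazone change ranged from -0.79 to 0.35.

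For pioglitazone in PPFP cells 2 members passed in the fit reported, 1 with RLE factors, with library size alone or with at least 10 counts in every compared library, 4 with the replicate block, and 1 to 2 with a library left out. Of the list genes 6 passed, against 2 with all 12 libraries in 1 fit, 54 with the replicate block and 2 to 7 with a library left out. For the difference between the lines the block within cell line raised the members past the threshold from 1 to 4. Over all genes the block changed 1486 calls to 5198 for pioglitazone in PPFP cells, where DESeq2 gave 2010, and 277 to 3594 for the difference, where DESeq2 gave 601. For the alternatives other than the block and DESeq2, and with a library left out, calls over all genes are not given here. The member and list counts of those fits thus have no background beside them. With pioglitazone, 24 list genes differed between the lines, and 18 to 45 with a library left out, 45 of them without EV replicate 3. The mitotic list had 4 such genes, against 7 with DESeq2, the exact test or the block, and the immediate early list 5, against 10 with DESeq2 and 8 with the exact test. The cause of these differences was not tested.

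Same-numbered PPFP and EV libraries correlated at -0.25, 0.32 and -0.32 without and -0.25, 0.24 and -0.38 with pioglitazone, so the numbers were not taken to pair across lines; whether they mark shared lanes was not tested. The block there took the calls from 4635 to 4050 without and from 5425 to 4545 with pioglitazone and left 2 members past the threshold. The 5 genes most like Plk1, Plk2 and Plk3 by Pearson r shared 0 genes with those by Spearman rho, and those of Plk4 shared 2. For Plk1 the 5 genes by rho all tied at 1, so that overlap says nothing. Those of Plk2, Plk3 and Plk4 also held ties, and those of Plk3 were between 0.972 and 0.986. Plk3 had 89 to 117 counts per library in EV cells, which limits its precision there.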

Other observations

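Plk5, a family member with a truncated kinase domain in some mammals that lies outside the 4 genes described above, was also in the table, and it was singled out after its values were seen. Its counts were 309, 220 and 374 in EV cells, 392, 153 and 329 in EV cells with pioglitazone, 150, 204 and 138 in PPFP cells and 82, 93 and 125 in PPFP cells with pioglitazone. The means were 10.1 ± 2.56, 9.01 ± 3.57, 6.35 ± 1.11 and 3.58 ± 0.543 CPM (SD, n = 3). Its direction was thus opposite to that of Plk2 and Plk3: the log2 difference between PPFP and EV cells was -0.67 (SE 0.22) without and -1.32 (SE 0.33) with pioglitazone, and pioglitazone in PPFP cells gave -0.81 (SE 0.18). The libraries overlapped without pioglitazone and did not overlap in the other 2 of these comparisons.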
